A study of Mus musculus with 4 samples.

Results

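The genes of vascular endothelial growth factor (VEGF) and angiopoietin signalling were followed through the cell classes of the injured mouse forebrain. They were chosen by symbol and comprise 10 of the 46983 genes in the count tables, namely the ligands *Vegfa*, *Vegfb*, *Vegfc* and *Pgf*, the VEGF receptors *Flt1*, *Kdr* and *Flt4*, the angiopoietins *Angpt1* and *Angpt2*, and the angiopoietin receptor *Tek*. All 10 were found in each of the 4 libraries. The libraries were made by droplet-based single-nucleus RNA sequencing of brain from male C57Black/6 mice aged 3 months. One library was labelled sham control, and the others were labelled day 1, day 3 and day 7 of a stroke model (MCAO), in which the middle cerebral artery is coagulated and cut for good and a small lesion forms in parietal cortex. No genetic alteration or drug other than the anaesthetic was named for any group. Each library came from 3 hemispheres pooled during nuclei isolation, so each group holds 1 library, no difference has a replicate check, and all intervals are exact 95% intervals that cover counting error only. The hemispheres hold far more tissue than the lesion, so lesioned and intact tissue cannot be told apart within a library.

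Both the identity of the sham tissue and the order of the late time points need care. The surgical protocol names intact cortex as control tissue, while the series design names forebrain hemispheres throughout, and the sham library held 354 nuclei with the markers of striatal projection neurons, which cortex lacks. Nuclei per time point, as the study lists them, fit the deposited libraries only if the day 3 and day 7 labels are exchanged. The deposited labels were kept, so day 3 and day 7 below always mean the libraries so labelled, and no order in time is read from them.

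VEGF ligands are secreted proteins that act on receptor tyrosine kinases of endothelial cells. *Kdr* (VEGFR2) carries most of the growth signal, *Flt1* (VEGFR1) binds VEGFA tightly with weak kinase activity and acts largely as a decoy, and *Flt4* (VEGFR3) is the receptor for VEGFC. Transcription of *Vegfa* is raised by hypoxia-inducible factors when oxygen is short, and in the brain astrocytes are a known source. Angiopoietin 1 activates the endothelial receptor TEK (TIE2) and keeps vessels quiet and tight, whereas angiopoietin 2 is released by activated endothelium and often opposes it.

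The libraries held 28195551 (sham control), 23285489 (day 1), 42963698 (day 3) and 25033355 (day 7) unique molecular identifiers (UMIs), of which 52.2% to 60.5% fell in called nuclei. After removal of likely doublets 7803 nuclei remained, 2118 in sham control, 1017 on day 1, 3097 on day 3 and 1571 on day 7. Median depth was 11035 UMIs per called nucleus in the day 1 library and 5499 to 7034 UMIs elsewhere. Pairs of libraries shared between 0 and 3 nucleus barcodes. The unit of every level is the number of UMIs per 1000000 UMIs of that class and library (CPM).

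Nuclei were assigned to classes by markers, with all 10 genes kept out of both the clustering and the markers, and each class is named for the type it resembles. The endothelial-like class held 94 nuclei, 30 in sham control, 6 on day 1, 47 on day 3 and 11 on day 7. Its 18 endothelial markers summed to 19434, 23059, 16401 and 20076 CPM in this order, with at least 17 of the 18 detected in every library. Mural markers summed to 2977, 3351, 1988 and 3131 CPM in the same nuclei, so mural RNA was present there too. A further 30 nuclei carried endothelial and mural markers together, with mural markers summing to 13064, 7430 and 8580 CPM in sham control, day 3 and day 7, and were kept apart as a mixed class (4, 0, 21 and 5 nuclei). The mural-like class, which resembles pericytes and smooth muscle, held 18, 7, 20 and 7 nuclei. The astrocyte-like class held 140, 53, 211 and 70 nuclei, the class resembling oligodendrocyte precursors (OPCs) 57, 34, 97 and 47, and neurons of all kinds 1401, 673, 1932 and 1023. Classes with at least 5 nuclei in every library, 11 in all, were compared. Unnamed nuclei (14, 25, 66 and 21) reach this number but were left out.

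Among the 11 compared classes all 4 receptors were highest in endothelial-like nuclei, and 3 of the ligands were highest in astrocyte-like nuclei. In these classes the highest mean level over the 4 libraries fell in the endothelial-like class for *Flt1*, *Kdr*, *Flt4* and *Tek*, and for *Vegfc* and *Angpt2* with few UMIs. Astrocyte-like nuclei led for *Vegfa*, *Vegfb* and *Angpt1*, and the *Vegfb* lead depends on leaving out the unnamed nuclei. For *Pgf*, which encodes placental growth factor, mural-like nuclei led on only 4 UMIs. Fibroblast-like nuclei, with 13, 4, 29 and 16 nuclei, were not among the 11 classes but stood above astrocyte-like nuclei for *Angpt1* in every library on few UMIs (4 to 25), at 91.9, 208, 160.3 and 425 CPM, and 46.0, 148, 80.2 and 68.0 CPM of *Vegfc*. Choroid-plexus-like nuclei (8, 2, 9 and 6) held 25.6, 0, 67.0 and 117 CPM of *Vegfb*, and unnamed nuclei 28.7, 41.4, 74.7 and 108 CPM. The astrocyte-like *Vegfb* level was 52.6, 32.9, 45.3 and 27.1 CPM, lower than in unnamed nuclei in every library except sham control. For the 4 receptors the range of the endothelial-like class over the libraries did not overlap that of any other of the 11 classes, which leave out the mixed class, while the leading class of every other gene overlapped the next in its range.

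**Figure D1:**
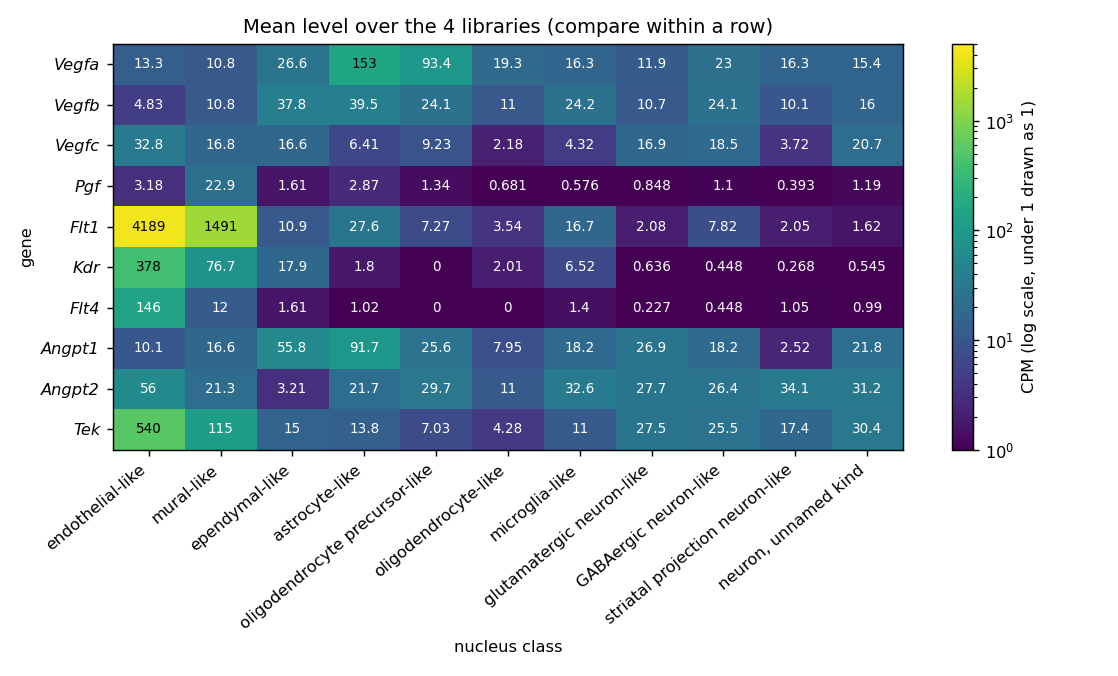
Mean level of the 10 genes in 11 cell classes, as CPM averaged over the 4 libraries on a log colour scale (values under 1 drawn as 1), to be compared within a row; fibroblast-like, choroid-plexus-like, mixed and unnamed nuclei are not drawn. The endothelial-like column is the brightest for *Flt1* (mean 4189 CPM), *Kdr* (378), *Flt4* (146) and *Tek* (539.7), and the astrocyte-like column for *Vegfa* (153), *Vegfb* (39.5) and *Angpt1* (91.7).

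Where most transcripts lay is a different quantity from the level, as neurons made up 64.4% of nuclei and were the deepest of the large classes. Of the *Flt1* UMIs in nuclei, 59.3% came from endothelial-like nuclei, which were 1.20% of all nuclei, 22.9% from the mixed class and 8.46% from mural-like nuclei. For *Kdr* these shares were 50.8%, 22.4% and 4.68%, and for *Flt4* 47.2%, 13.2% and 1.89%. *Tek* was spread otherwise, with 12.5% of its UMIs in endothelial-like nuclei and 77.8% in neurons. Astrocyte-like nuclei, 6.07% of all nuclei, held 24.0% of *Vegfa* UMIs, and OPC-like nuclei, 3.01% of all nuclei, held 6.77%. Neurons held 71.5% of the UMIs of *Vegfb*, 87.8% of *Vegfc*, 74.3% of *Angpt1* and 88.3% of *Angpt2*. *Angpt2* lies within *Mcph1* on the other strand, and the part of *Mcph1* reads in its UMIs was not tested.

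**Figure D2:**
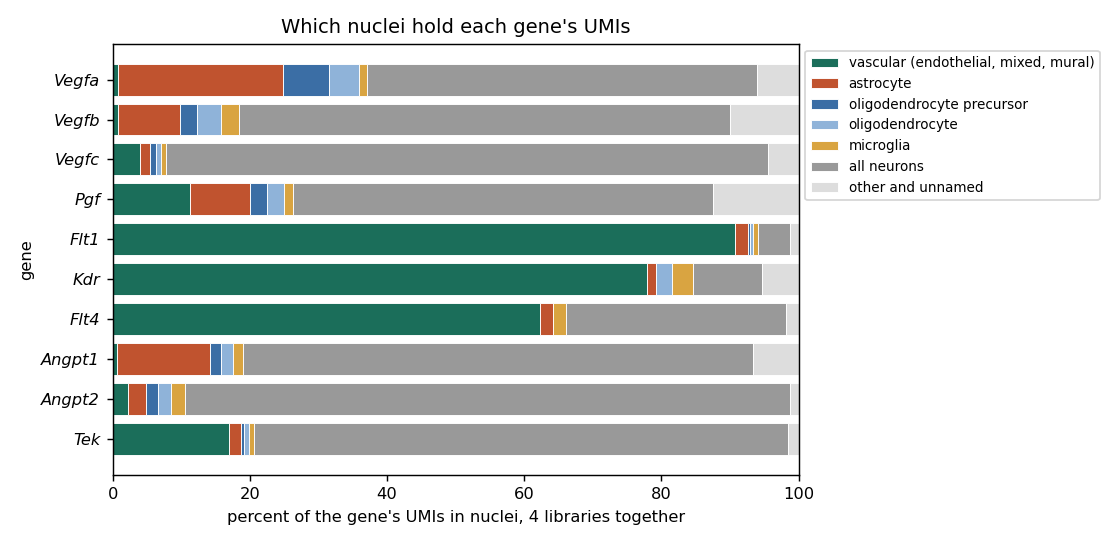
Share of each gene's UMIs in nuclei that came from each group of classes, in percent of all UMIs of the gene over the 4 libraries (stacked bars). *Flt1*, *Kdr* and *Flt4* are mostly vascular, whereas 77.8% of *Tek* UMIs and 88.3% of *Angpt2* UMIs came from neurons.

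The 4 receptor genes lead in the same class, so the bases before their start sites are shown, as listed by RefSeq for GRCm38.p6 (8 of the 10 genes matched an entry). Each is the 250 bases before the start site, 5′ to 3′ on the gene's strand. Capitals mark GGAA, the core of the motif of ETS transcription factors, on either strand (read as TTCC on the other strand).

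Flt1: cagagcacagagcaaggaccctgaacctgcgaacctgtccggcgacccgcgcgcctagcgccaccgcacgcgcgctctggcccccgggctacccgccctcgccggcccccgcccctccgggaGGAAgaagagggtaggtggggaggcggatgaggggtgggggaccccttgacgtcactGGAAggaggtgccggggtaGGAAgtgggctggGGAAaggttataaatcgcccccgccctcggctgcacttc
Kdr: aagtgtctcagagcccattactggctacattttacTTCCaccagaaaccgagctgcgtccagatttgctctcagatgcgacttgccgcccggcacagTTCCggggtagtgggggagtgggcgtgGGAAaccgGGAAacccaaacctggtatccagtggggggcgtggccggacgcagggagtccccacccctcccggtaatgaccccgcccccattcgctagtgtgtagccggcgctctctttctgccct
Flt4: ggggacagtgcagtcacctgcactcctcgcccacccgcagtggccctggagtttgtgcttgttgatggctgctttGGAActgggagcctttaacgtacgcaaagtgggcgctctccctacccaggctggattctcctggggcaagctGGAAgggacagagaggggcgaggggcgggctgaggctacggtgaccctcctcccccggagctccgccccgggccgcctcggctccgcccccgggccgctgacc
Tek: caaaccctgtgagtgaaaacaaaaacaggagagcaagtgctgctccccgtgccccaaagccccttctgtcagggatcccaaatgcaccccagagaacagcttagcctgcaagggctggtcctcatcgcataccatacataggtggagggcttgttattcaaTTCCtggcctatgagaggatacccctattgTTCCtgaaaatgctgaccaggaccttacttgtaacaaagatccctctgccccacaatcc

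These windows lie at chr5:147726012-147726261 (minus strand) for *Flt1*, chr5:75978456-75978705 (minus) for *Kdr*, chr11:49609429-49609678 (plus) for *Flt4* and chr4:94739039-94739288 (plus) for *Tek*. They are taken from the RefSeq start sites, which can differ from those of the genes as counted. The *Flt4* window lies inside the counted gene, which begins at 49609263. The *Kdr* window reaches just into the counted gene, which ends at 75978458. GGAA occurred 4 times before *Flt1*, 4 times before *Kdr*, 2 times before *Flt4* and 2 times before *Tek*. It occurred in 93.4% of 32851 promoter windows of the same length, with a median of 3 matches, so its presence does not set these genes apart. ACGTG or GCGTG on either strand, the core of the hypoxia response element, was in 38.6% of the windows. It occurred 1 time before *Flt1*, 2 times before *Kdr* and not before *Flt4* or *Tek*, nor in the *Vegfa* window. Bases outside these windows were not searched, so elements further away would be missed.

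*Flt1* (ENSMUSG00000029648.13, GRCm38 chr5:147561604-147726011, minus strand) was detected in 92 of the 94 endothelial-like nuclei. Its level in this class was 4795 CPM in sham control (interval 4344 to 5279.7, 414 UMIs), 4919 on day 1 (4186 to 5743, 160 UMIs), 2766 on day 3 (2585 to 2956, 871 UMIs) and 4277 on day 7 (3777 to 4824, 265 UMIs). Sham control, day 1 and day 7 had overlapping intervals, and the library labelled day 3 lay below them. The ratio to sham control was 1.03 on day 1 (0.849 to 1.23), 0.577 on day 3 (0.513 to 0.650) and 0.892 on day 7 (0.762 to 1.04).

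The order of the libraries for *Flt1* differed with the depth of the nuclei counted. Of the 47 endothelial-like nuclei on day 3, 8 had more than 10000 UMIs and held 60.8% of the UMIs of the class, against 1 of 30 nuclei in sham control with 12%. *Flt1* stood at 1734 CPM in these 8 nuclei and at 4365 CPM in the other 39. The 8 markers of neurons of any kind summed to 5291 CPM in the 8 deep nuclei and to 1474 CPM in the others, and the 18 endothelial markers to 13174 and 21404 CPM. Without nuclei over 10000 UMIs, a limit chosen after seeing the data, the log2 ratio of day 3 to sham control was -0.11 (-0.31 to 0.08), against -0.79 with all nuclei. Day 7 moved the other way under the same limit, to -0.45 (-0.80 to -0.12). The levels were then 4724, 5219, 4365 and 3450 CPM, so that the lowest library was day 7, on 9 nuclei. Of the 265 *Flt1* UMIs on day 7, 137 lay in 1 nucleus, and without it the log2 ratio was -0.47 (-0.77 to -0.17). Neither day 7 value reached 1.5-fold. The median over nuclei was 5319.7 CPM in sham control, 4321 on day 1, 4435 on day 3 and 4356 on day 7, so the typical nucleus of day 3 was close to those of day 1 and day 7, all below sham control. The part of depth and of the neuronal markers in the day 3 level was not tested.

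The endothelial-like class was made of a pair of clusters whose share differed between libraries. One, led by *Ly6c1* and *Cldn5*, held 10, 3, 13 and 7 nuclei in sham control, day 1, day 3 and day 7, and the other, led by *Mecom* and *Adgrl4*, held 20, 3, 34 and 4. In the first, *Flt1* stood at 5588, 5819, 4214 and 2931 CPM. In the second it stood at 4514, 4275, 2470.1 and 5063 CPM. The lowest library was day 7 in the first cluster and day 3 in the second.

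Of the other vascular classes, the mixed class held 3993, 4172 and 4558 CPM in sham control, day 3 and day 7, and had no nuclei on day 1. Its intervals overlapped those of endothelial-like nuclei in sham control and on day 7, while on day 3 it stood above them. Mural-like nuclei held 1779, 722, 1043 and 2419 CPM in the 4 libraries, with ratios to sham control of 0.406 on day 1 (0.159 to 0.869, 7 UMIs), 0.586 on day 3 (0.400 to 0.847) and 1.36 on day 7 (1.01 to 1.82). The day 1 difference was lost in 6 of 13 alternatives, with log2 ratios from -2.23 to -0.052, and the day 3 difference in 2 of 13. Endothelial markers in the same mural-like nuclei summed to 4466, 619, 2939 and 12314 CPM and so took the same order as *Flt1*, and their part in it was not tested. In nuclei that should lack the receptor, *Flt1* was at 1.75 to 5.85 CPM (oligodendrocyte-like) and 1.61 to 3.41 CPM (neurons), and it was found in 0.625% to 1.38% of oligodendrocyte-like nuclei, whose median depth was 1863 to 3087.5 UMIs against 1856.5 to 4276 in endothelial-like nuclei. Astrocyte-like nuclei held 18, 2, 9 and 28 UMIs of *Flt1* in 4, 1, 4 and 3 nuclei, so the differences there came from few nuclei. In neurons 26 of the 38 *Flt1* UMIs of day 1 lay in 1 GABAergic-like nucleus.

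Over all nuclei of a library *Flt1* stood at 42.6 CPM in sham control (39.5 to 45.9), 16.8 on day 1 (14.7 to 19.2), 66.0 on day 3 (62.6 to 69.5) and 41.3 on day 7 (37.9 to 44.9). The endothelial-like share of nuclei was 1.42%, 0.590%, 1.52% and 0.700% in the same order, lowest on day 1 as was *Flt1*. In such a sum alone, fewer endothelial nuclei and less RNA per nucleus cannot be told apart. Within endothelial-like nuclei the day 1 ratio was 1.03 (0.849 to 1.23), on 6 nuclei. The part of each in the sum was not tested.

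**Figure D3:**
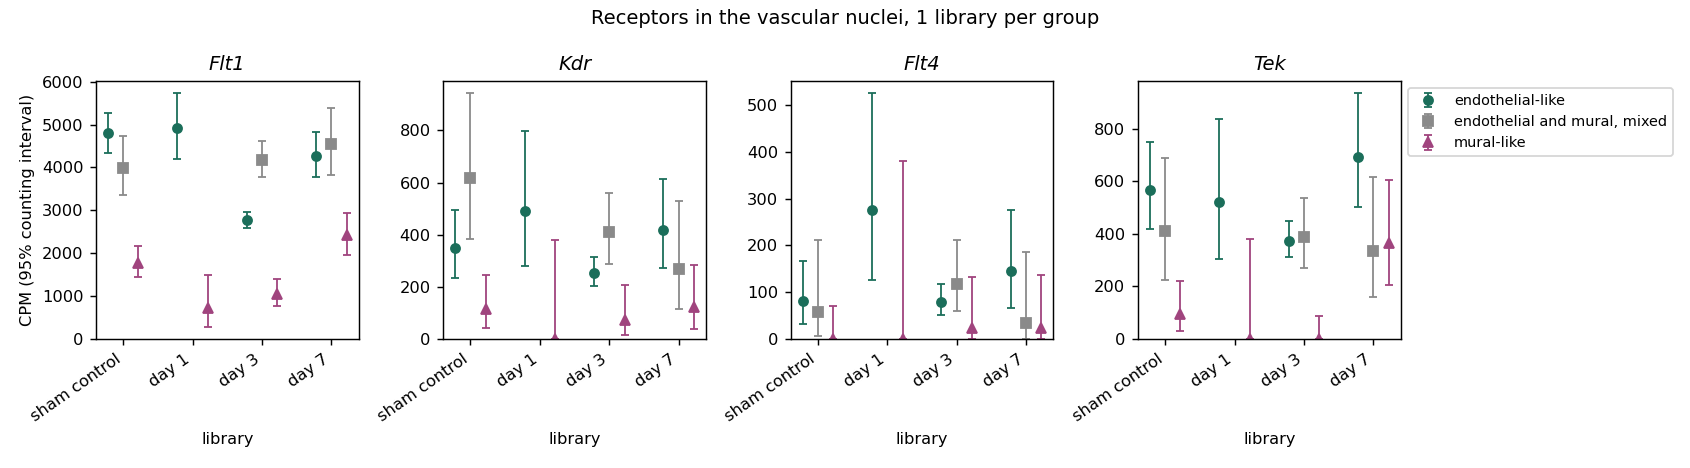
Levels of *Flt1*, *Kdr*, *Flt4* and *Tek* (CPM, 1 panel each) in endothelial-like, mixed and mural-like nuclei of the 4 libraries, as points with exact 95% Poisson intervals. Endothelial-like *Flt1* lies at 4795, 4919 and 4277 CPM in sham control, day 1 and day 7 and at 2766 CPM in the library labelled day 3, and the wide bars on day 1 reflect 6 endothelial-like nuclei.

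*Kdr* (ENSMUSG00000062960.10, chr5:75932827-75978458, minus strand) had 30, 16, 80 and 26 UMIs in endothelial-like nuclei, found in 14, 4, 26 and 8 nuclei. Its level was 347 CPM in sham control (234 to 496), 492 on day 1 (281 to 799), 254 on day 3 (201 to 316) and 419.6 on day 7 (274 to 615). The intervals of all 4 libraries overlapped one another, and ratios to sham control were 1.42 (0.721 to 2.68), 0.731 (0.475 to 1.15) and 1.21 (0.686 to 2.11). These intervals are wide enough to hold both no difference and a large one. The mixed class held 617, 409 and 268 CPM in sham control, day 3 and day 7. Mural-like nuclei held 6, 0, 3 and 5 UMIs of *Kdr*, and OPC-like nuclei held none in any library.

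*Flt4* (ENSMUSG00000020357.3, chr11:49609263-49652739, plus strand), in the adult body mainly a receptor of lymphatic endothelium, had only 50 UMIs in endothelial-like nuclei. They fell as 7, 9, 25 and 9 UMIs in 6, 5, 11 and 5 nuclei, or 81.1 CPM in sham control (32.6 to 167), 277 on day 1 (127 to 525), 79.4 on day 3 (51.4 to 117) and 145 on day 7 (66.4 to 276). The day 1 ratio of 3.41 (1.13 to 10.8) came from 6 nuclei and lost its interval away from 1 in 5 of 14 alternatives, among them both other scalings. Oligodendrocyte-like and OPC-like nuclei held no *Flt4* UMI in any library. Neurons held 3, 9, 11 and 11 UMIs, a day 7 ratio of 4.61 (1.22 to 25.7). Their level was 0.213, 0.807, 0.627 and 0.982 CPM. Barcodes of at most 1000 UMIs held 1.55, 4.60, 2.94 and 4.10 CPM of *Flt4*, above the neuronal level in every library. A part of free RNA in the neuronal *Flt4* UMIs cannot be set aside.

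*Tek* (ENSMUSG00000006386.15, chr4:94739289-94874976, plus strand) was found in 61 of the 94 endothelial-like nuclei. Its level there was 568 CPM in sham control (419.8 to 750.3, 49 UMIs), 523 on day 1 (304 to 837, 17 UMIs), 375 on day 3 (310.1 to 449, 118 UMIs) and 694 on day 7 (502 to 935, 43 UMIs). The day 3 ratio was 0.660 (0.469 to 0.941), and the log2 ratio without nuclei over 10000 UMIs was -0.45 (-1.03 to 0.14). The day 3 difference was lost in 7 of 16 alternatives. On day 7 the ratio was 1.22 (0.793 to 1.88), but 31 of the 43 UMIs lay in 1 nucleus. The day 7 log2 ratio was -0.77 (-1.83 to 0.18) without that nucleus and -0.55 (-1.65 to 0.42) without nuclei over 10000 UMIs, so its direction turned. Mural-like nuclei held 5, 0, 0 and 15 UMIs, a day 7 ratio of 3.87 (1.34 to 13.6), in the library in which their endothelial markers were highest.

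*Kdr* was found in 52, *Tek* in 61 and *Flt4* in 27 of the 94 endothelial-like nuclei. As *Flt1* was in 92 of them, its overlap with the others carries little information. *Kdr* and *Tek* were both found in 38 nuclei, *Flt4* and *Kdr* in 19, and *Flt4* and *Tek* in 20. These counts are a description, and whether they exceed what the separate counts give was not tested.

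Neurons held 1408 of the 1810 *Tek* UMIs. The neuronal level was 23.9 CPM in sham control (21.4 to 26.5), 34.0 on day 1 (30.7 to 37.6), 25.4 on day 3 (23.1 to 27.8) and 22.1 on day 7 (19.5 to 25.1). Day 1 stood above the other libraries, whose intervals overlapped, with a ratio to sham control of 1.43 (1.23 to 1.66) that stays under 1.5-fold. *Tek* was found in 19.2%, 33.3%, 18.2% and 19.1% of neurons, at median depths of 8546, 14312, 7717.5 and 9283 UMIs. When every nucleus was thinned to 1000 UMIs the shares were 2.14%, 3.42%, 2.74% and 1.56%. Oligodendrocyte-like nuclei held 1.27 to 6.83 CPM and barcodes of at most 1000 UMIs, which hold free RNA, held 13.8 to 19.8 CPM, so the neuronal level lay above both in every library. By cluster it was highest, at 47.7 CPM, in neurons led by *Gm42705*, followed by 35.7 CPM in neurons led by *Stard8* and *Ccbe1*. Among neuron classes the day 1 ratio was 1.79 in GABAergic-like neurons (1.08 to 3.01), 1.48 in neurons of unnamed kind (1.15 to 1.92), 1.43 in striatal-projection-like neurons (0.954 to 2.14) and 1.22 in glutamatergic-like neurons (0.963 to 1.55).

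*Vegfa* (ENSMUSG00000023951.16, chr17:46016993-46032369, minus strand), the main angiogenic ligand, was highest in astrocyte-like nuclei among the 11 classes. Its level there was 168 CPM in sham control (137 to 204, 102 UMIs), 186 on day 1 (145 to 236, 68 UMIs), 172 on day 3 (144 to 204, 129 UMIs) and 85.9 on day 7 (60.8 to 118, 38 UMIs). The libraries of sham control, day 1 and day 3 overlapped, and the library labelled day 7 lay below all of them. The ratios were 1.11 (0.806 to 1.53), 1.03 (0.785 to 1.34) and 0.512 (0.343 to 0.750). The day 7 difference was lost in 1 of 14 alternatives, when nuclei were thinned to 1000 UMIs, at a log2 ratio of -0.30 (-1.46 to 0.76) against -0.97. *Vegfa* was found in 37.1%, 62.3%, 37.0% and 35.7% of astrocyte-like nuclei (16.4%, 26.4%, 12.8% and 14.3% after thinning), against 4.02%, 6.25%, 4.14% and 3.50% of oligodendrocyte-like nuclei, at median depths of 2793 to 5340 and 1863 to 3087.5 UMIs.

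Among the 11 classes OPC-like nuclei came next for *Vegfa*. They held 138 CPM in sham control (95.2 to 194, 33 UMIs), 119.8 on day 1 (79.0 to 174, 27 UMIs), 67.1 on day 3 (43.4 to 99.1, 25 UMIs) and 48.4 on day 7 (23.2 to 89.0, 10 UMIs). The libraries labelled day 3 and day 7 were the lower pair, with ratios of 0.485 (0.277 to 0.841) and 0.350 (0.154 to 0.727), and day 1 was at 0.866 (0.501 to 1.49). With nuclei thinned to 1000 UMIs the day 3 difference was lost, at a log2 ratio of -0.50 (-2.48 to 1.55) against -1.04. The 10 UMIs of day 7 lay in 10 different nuclei. Ependymal-like nuclei held 9, 3, 1 and 1 UMIs of *Vegfa*, and choroid-plexus-like nuclei 11, 0, 3 and 4. The choroid-plexus-like cluster of 19 nuclei stood at 93.8, 0, 85.9 and 129 CPM, above OPC-like nuclei on day 3 and day 7.

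In neurons *Vegfa* was lower and alike across libraries, at 14.8, 16.3, 14.2 and 14.0 CPM with ratios of 1.11 (0.901 to 1.36), 0.961 (0.796 to 1.16) and 0.949 (0.766 to 1.17). Barcodes of at most 1000 UMIs held 33.2, 46.2, 29.3 and 35.5 CPM, above the neuronal level in each library, so a part of free RNA in the neuronal UMIs cannot be set aside. In glutamatergic-like neurons the day 1 ratio was 1.55 (1.09 to 2.24, 57 and 74 UMIs). Endothelial-like nuclei held 1, 0, 3 and 2 UMIs. Over all nuclei of a library *Vegfa* stood at 23.6, 24.3, 21.8 and 17.4 CPM.

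**Figure D4:**
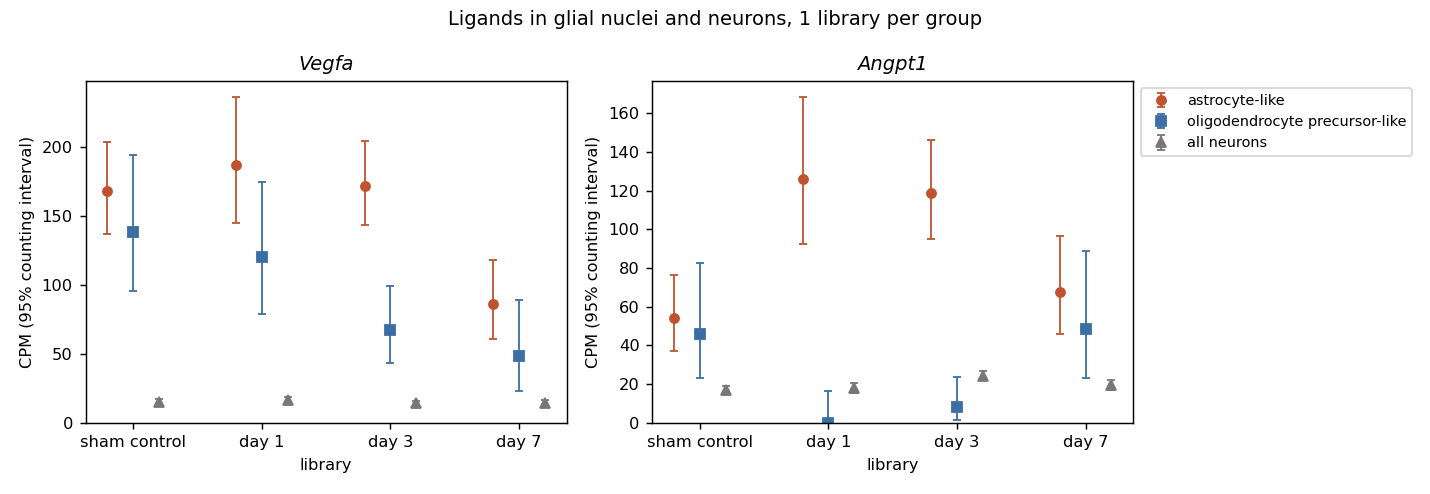
Levels of *Vegfa* and *Angpt1* (CPM) in astrocyte-like, OPC-like and neuronal nuclei of the 4 libraries, as points with exact 95% Poisson intervals. *Vegfa* in astrocyte-like nuclei stands at 168 CPM in sham control and at 85.9 CPM in the library labelled day 7, while *Angpt1* in the same class stands at 54.2 CPM in sham control and at 126 and 119 CPM on day 1 and day 3.

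*Vegfb* (ENSMUSG00000024962.13, chr19:6982473-6987651, minus strand), a ligand of *Flt1* linked to metabolism more than to vessel growth, had 32, 12, 34 and 12 UMIs in astrocyte-like nuclei. Its level there was 52.6 CPM in sham control (36.0 to 74.3), 32.9 on day 1 (17.0 to 57.5), 45.3 on day 3 (31.4 to 63.3) and 27.1 on day 7 (14.0 to 47.4), all overlapping. The day 7 ratio was 0.516 (0.242 to 1.03), an interval that includes 1. GABAergic-like neurons held 25.5, 21.3, 23.1 and 26.6 CPM. Neurons together held 14.0, 15, 11.8 and 12.6 CPM, with every ratio between 0.843 and 1.07. Barcodes of at most 1000 UMIs held 28.1, 39.8, 32.1 and 34.9 CPM of *Vegfb*, above the neuronal level in every library and above the astrocyte-like level on day 1 and day 7.

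*Vegfc* (ENSMUSG00000031520.5, chr8:54077606-54187096, plus strand), the ligand of *Flt4*, had 856 of its 975 UMIs in neurons. Neurons held 14.9 CPM in sham control (13 to 17.1), 13.5 on day 1 (11.4 to 15.8), 18.3 on day 3 (16.3 to 20.4) and 15.6 on day 7 (13.4 to 18.1). Barcodes of at most 1000 UMIs held 13.2, 8.27, 15.7 and 13.9 CPM, within the neuronal interval in sham control and on day 7 and below it on day 1 and day 3. Striatal-projection-like neurons held only 2.46 to 4.65 CPM, below neurons of unnamed kind (16.7 to 24.9 CPM) and glutamatergic-like neurons (14.9 to 18.9 CPM) in every library. By cluster it was highest in neurons led by *Gm42705*, with 54.4 CPM and UMIs in 37.7% of 114 nuclei, and in GABAergic-like neurons led by *Sst* and *Npy*, with 45.1 CPM. GABAergic-like neurons held 21.1, 8.70, 27.0 and 17.4 CPM, a day 1 ratio of 0.412 (0.169 to 0.919) from 24 and 9 UMIs. This difference was lost in 2 of 13 alternatives, at log2 ratios of -0.88 (doublets kept) and -1.09 (libraries merged without integration), against -1.28. Over all alternatives the log2 ratio ran from -1.62 to -0.45, and the value of -0.45 was under 1.5-fold. Endothelial-like nuclei held 2, 0, 29 and 1 UMIs, and fibroblast-like nuclei 2, 5, 10 and 4. The day 3 endothelial ratio of 3.98 (1.01 to 34.4) rested on 16 UMIs in 1 nucleus and lost its interval away from 1 in 7 of 14 alternatives.

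*Pgf* (ENSMUSG00000004791.6, chr12:85166635-85177790, minus strand), a ligand that binds *Flt1* alone, was near the limit of detection. It had 16, 10, 39 and 15 UMIs in all nuclei, of which 1, 0, 1 and 2 lay in mural-like nuclei and 0, 0, 4 and 0 in endothelial-like nuclei. Among neurons pooled it had 9, 9, 22 and 9 UMIs, with ratios of 1.26 (0.444 to 3.59), 1.96 (0.868 to 4.84) and 1.26 (0.442 to 3.57). Over all nuclei the day 3 ratio was 1.89 (1.03 to 3.62), and those on day 1 and day 7 were 0.795 (0.323 to 1.86) and 1.16 (0.534 to 2.51). Of the 39 UMIs on day 3, 4 lay in 1 endothelial-like nucleus. Barcodes of at most 1000 UMIs held 3.28, 5.82, 4.80 and 4.19 CPM of *Pgf*. In every library this was above neurons (0.639, 0.807, 1.25 and 0.803 CPM) and above all nuclei (0.967, 0.769, 1.83 and 1.12 CPM).

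*Angpt1* (ENSMUSG00000022309.8, chr15:42424723-42676977, minus strand) was higher in astrocyte-like nuclei on day 1 and day 3 than in sham control. Its level was 54.2 CPM in sham control (37.3 to 76.2, 33 UMIs), 126 on day 1 (92.3 to 168, 46 UMIs), 119 on day 3 (95.2 to 146, 89 UMIs) and 67.8 on day 7 (45.7 to 96.8, 30 UMIs). Day 1 and day 3 did not overlap sham control, and day 7 did. The ratios were 2.33 (1.45 to 3.75), 2.19 (1.45 to 3.37) and 1.25 (0.736 to 2.11), and the UMIs were spread over 21, 18, 48 and 15 nuclei. The nucleus with most UMIs held 5, 12, 5 and 7 of them in the 4 libraries. The share of nuclei with a UMI was 15%, 34.0%, 22.7% and 21.4%, or 5.71%, 11.3%, 8.06% and 2.86% after thinning, against 1.25% to 2.07% of oligodendrocyte-like nuclei. With thinned nuclei, 1 of 14 alternatives, both intervals included no difference, at a log2 ratio of 1.25 on day 1 (-0.23 to 2.7), against 1.22, and of 0.33 on day 3 (-0.84 to 1.6), against 1.13.

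OPC-like nuclei had less *Angpt1* on day 1 and day 3 than in sham control. They held 11, 0, 3 and 10 UMIs, or 46.1 CPM in sham control (23.0 to 82.5), none on day 1 (at most 16.4), 8.05 on day 3 (1.66 to 23.5) and 48.4 on day 7 (23.2 to 89.0). The day 1 ratio had an upper limit of 0.422, and the day 3 ratio was 0.175 (0.0313 to 0.661). The 11 UMIs of sham control came from 5 nuclei, so the level behind this contrast is itself uncertain.

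Neurons held 1086 of the 1461 *Angpt1* UMIs, at 17.0, 17.9, 24.4 and 19.5 CPM, with a day 3 ratio of 1.44 (1.22 to 1.69). Barcodes of at most 1000 UMIs held 13.3, 11.2, 18.4 and 16.3 CPM, below the neuronal interval in every library. One glutamatergic-like cluster of 65 nuclei, led by *Nr4a2* and *Ntng2*, genes of claustral and deep cortical neurons, held 168 of these UMIs at 170.2, 181, 211 and 243 CPM in the 4 libraries. *Angpt1* was found in 66.2% of its nuclei. GABAergic-like neurons held 13.2, 8.70, 34.7 and 16.4 CPM, a day 3 ratio of 2.63 (1.44 to 5.08). Neurons of unnamed kind held 16.9, 18.3, 26.0 and 26.1 CPM, past the fold on day 3 at 1.54 (1.15 to 2.09) and on day 7 at 1.55 (1.13 to 2.13). Striatal-projection-like neurons held 3.49, 3.46, 2.63 and 0.49 CPM and were past it in the other direction on day 7, at 0.141 (0.0033 to 0.952) from 12 and 1 UMIs. Glutamatergic-like neurons held 26.6, 26.4, 31.2 and 23.3 CPM, with no ratio past the fold. Ependymal-like nuclei held 4, 6, 3 and 9 UMIs, past the fold on day 7 at 4.57 (1.28 to 20.3), and fibroblast-like nuclei 4, 7, 20 and 25, of which 22 of the 25 on day 7 lay in 1 nucleus. The 9 ependymal-like UMIs of day 7 lay in 2 nuclei. Their difference was lost in 1 of 11 alternatives, median-of-ratios scaling, and 14.3% of all genes were past the fold in that class and library. Mural-like nuclei, which resemble the pericytes known as a source of angiopoietin 1, held only 1, 0, 2 and 0 UMIs.

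*Angpt2* (ENSMUSG00000031465.6, chr8:18690263-18741562, minus strand) lies wholly within *Mcph1* on the other strand. The study's counting settings name no strand option, and STARsolo by default counts only reads on the strand of the gene. Counting whole genes without strand would leave no unambiguous read to a gene inside another, whereas 1805 *Angpt2* UMIs were counted. This bears on the strand setting only, and whether reads from *Mcph1* transcripts add to the *Angpt2* UMIs was not tested. Neurons held 29.4, 31.5, 26.6 and 32.2 CPM of *Angpt2*, and 90.0% of the 4886 *Mcph1* UMIs were neuronal too. There were 36.2 *Angpt2* UMIs per 100 *Mcph1* UMIs in neurons (34.2 to 38.4), 39.2 in astrocyte-like, 39.7 in OPC-like and 40.7 in microglia-like nuclei. Endothelial-like nuclei held 27 *Angpt2* and 17 *Mcph1* UMIs, a ratio of 159 per 100 (83.5 to 311) that lay apart from neurons. Their *Angpt2* UMIs numbered 2, 3, 19 and 3 over sham control, day 1, day 3 and day 7, with a day 3 ratio of 2.60 (0.628 to 23.1).

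The genes past the fold, meaning at least 1.5-fold either way with a counting interval away from 1, were counted in each class among those with at least 10 UMIs in the pair of sums. In endothelial-like nuclei it was 1 of 4 genes on day 1 (*Flt4* higher), 3 of 6 on day 3 (*Vegfc* higher, *Flt1* and *Tek* lower) and 0 of 4 on day 7, while 12%, 8.37% and 10.8% of all genes were past it. Without nuclei over 10000 UMIs none of the 4, 5 and 4 genes was past the fold, while 10.9%, 8.15% and 11.4% of all genes were. In mural-like nuclei it was 1 of 1 (*Flt1* lower), 1 of 1 (*Flt1* lower) and 1 of 3 (*Tek* higher), against 9.25%, 9.66% and 14.5% of all genes. Astrocyte-like nuclei gave 2 of 6 on day 1 and on day 3 (*Angpt1* higher, *Flt1* lower) and 2 of 7 on day 7 (*Flt1* higher, *Vegfa* lower), against 10.1%, 9.1% and 9.2%. OPC-like nuclei gave 1 of 4 (*Angpt1* lower), 2 of 4 (*Vegfa* and *Angpt1* lower) and 1 of 4 (*Vegfa* lower), against 7.94%, 7.26% and 6.44%. In neurons 1 of 10 was past it on day 1 (*Flt1* higher), 0 of 10 on day 3 and 1 of 10 on day 7 (*Flt4* higher), against 7.64%, 5.14% and 7.21%. The neuronal *Flt4* difference rests on 3 and 11 UMIs, at levels below those of free RNA. With so few genes tested in a class these shares say little about the genes as a group.

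**Figure D5:**
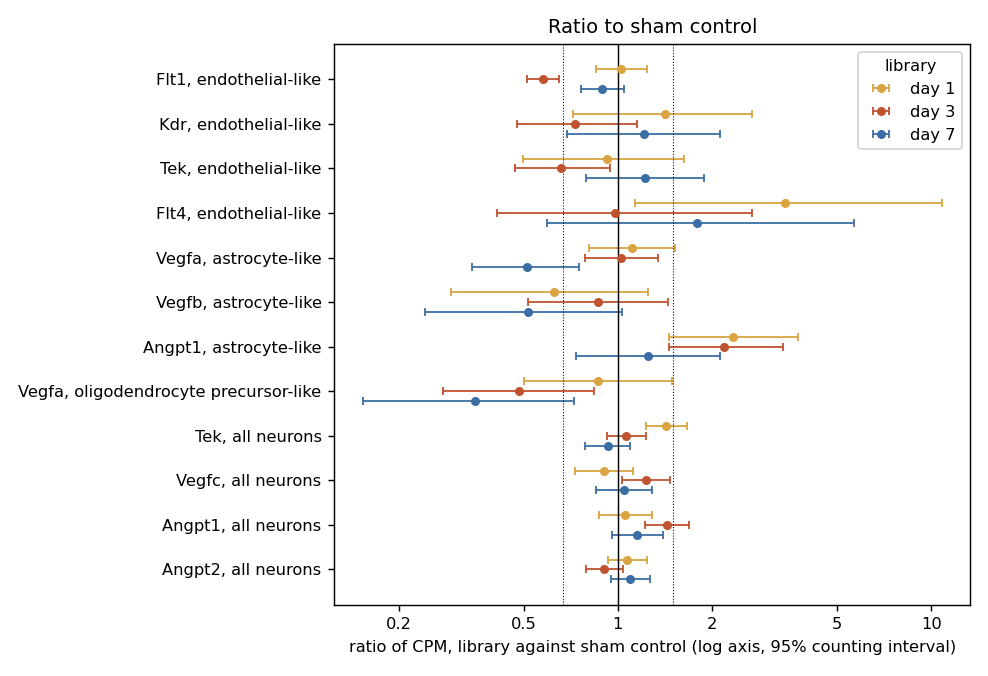
Ratio of each post-injury library to sham control for 12 pairs of gene and class on a log axis, with exact 95% intervals for counting error; dotted lines mark 1.5-fold either way. *Angpt1* in astrocyte-like nuclei lies right of the lines on day 1 and day 3 (2.33 and 2.19), and *Vegfa* in astrocyte-like nuclei lies left of them on day 7 (0.512).

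Other genes of the pathway were described in 4 lists, chosen with earlier results of these data known. Of 14 co-receptors, receptor partners and further ligands 13 were in the tables. In endothelial-like nuclei 0 of 3 tested were past the fold on day 1, 3 of 9 on day 3 (2 higher, 1 lower) and 3 of 6 on day 7 (all higher), against 12%, 8.37% and 10.8% of all genes. *Nrp2*, a co-receptor for VEGFC, had 4 UMIs in sham control, 50 on day 3 and 11 on day 7, with ratios of 3.43 (1.26 to 13.1) and 3.83 (1.14 to 16.5). *Plxnd1*, a semaphorin receptor of vessels, had 1, 38 and 10 UMIs, with ratios of 10.4 (1.76 to 422) and 13.9 (1.98 to 605). Without nuclei over 10000 UMIs neither gene had the 10 UMIs needed for a day 7 ratio, and on day 3 *Plxnd1* was at 8.62 (1.31 to 364). *Tie1*, the partner of TEK, stood at a ratio of 2.79 on day 7 (1.34 to 6.12). The median log2 ratio of the list was -0.06, 0.06 and 1.11 for day 1, day 3 and day 7, against -0.01, -0.06 and -0.04 over all genes. Without nuclei over 10000 UMIs it was -0.11, 0.88 and -0.41, against 0.19, 0.02 and -0.04 over all genes. The medians without them rest on 3, 5 and 3 genes, and the day 7 medians cover different sets, 6 genes with all nuclei and 3 (*Nrp1*, *Tie1* and *Ptprb*) without the deep ones.

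Of the 10 genes of oxygen sensing, 2 of 5 tested were higher in endothelial-like nuclei on day 1, 1 of 7 on day 3 and 1 of 4 on day 7, and none was lower, where 12%, 8.37% and 10.8% of all genes were past the fold in either direction. *Hif1a*, the oxygen-regulated subunit of HIF-1, had 6, 9 and 61 UMIs in sham control, day 1 and day 3, with ratios of 3.98 (1.27 to 13.6) and 2.79 (1.21 to 7.89). *Epas1*, which encodes the related HIF-2α abundant in endothelium, stood at a ratio of 1.58 on day 1 (1.12 to 2.22). The list medians were 1.05, -0.30 and 0.70, or 1.15, 0.24 and 0.68 without nuclei over 10000 UMIs. Of the 22 signal transduction genes 1 of 16 was lower on day 1, 1 of 19 was lower on day 3, and on day 7 1 was higher and 1 lower of 16, with the same shares of all genes and with medians of -0.44, -0.02 and -0.09, or -0.02, -0.02 and -0.14 without nuclei over 10000 UMIs.

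Tip cell and sprouting genes numbered 19. In endothelial-like nuclei 1 of 9 was higher on day 1, 4 of 14 were lower on day 3, and on day 7 1 was higher and 2 lower of 9, against 12%, 8.37% and 10.8% of all genes, with medians of 0.48, -0.55 and -0.73, or 0.53, -0.15 and 0.0066 without nuclei over 10000 UMIs. *Klf4*, a flow-responsive transcription factor that marks quiet endothelium rather than sprouting, stood at ratios of 2.08 (1.06 to 4.02), 0.286 (0.155 to 0.530) and 0.364 (0.121 to 0.918). *Dll4*, the Notch ligand of tip cells, was at 0.366 on day 3 (0.141 to 0.982), and *Sox18*, an endothelial transcription factor, at 2.44 on day 7 (1.27 to 4.82). Without nuclei over 10000 UMIs the co-receptor list gave 1 lower of 3, 1 higher of 5, and 1 higher and 1 lower of 3 genes, and the oxygen-sensing list 2 of 4, 1 of 5 and 0 of 4 higher, where 10.9%, 8.15% and 11.4% of all genes were past the fold. The tip cell list then gave 3 of 9 higher on day 1 and 1 higher and 1 lower of 9 on day 7, and 1 of 11 genes of this list was lower on day 3, *Klf4* at 0.280 (0.118 to 0.616), and *Dll4* was at 0.479 (0.151 to 1.44). Under the same limit *Hif1a* was at 2.77 on day 3 (1.12 to 8.20) and *Nrp2* at 3.38 (0.739 to 31.4).

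In astrocyte-like nuclei, where 10.1%, 9.1% and 9.2% of all genes were past the fold for day 1, day 3 and day 7, the lists were described in the same way. *Nrp1*, a co-receptor for VEGFA, stood at ratios of 1.70 on day 3 (1.21 to 2.41) and 1.90 on day 7 (1.31 to 2.77), and *Plxnd1* at 4.05 on day 3 (1.15 to 21.8, 3 and 15 UMIs). These were 2 of 9 co-receptor genes on day 3 and 1 of 6 on day 7, with none of 6 on day 1. Of the oxygen-sensing genes only *Hif3a*, which opposes the other factors in some forms, was past the fold, at 1.55 on day 3 (1.23 to 1.98), or 0 of 9, 1 of 9 and 0 of 9. Among signal transduction genes 2 of 18 were higher on day 1, 2 of 19 were lower on day 3, and on day 7 1 was higher and 1 lower of 17. *Prkca*, a protein kinase C, stood at 1.82 on day 1 (1.43 to 2.34) and 2.16 on day 7 (1.72 to 2.72), *Grb10*, an adaptor that dampens receptor kinases, at 0.423 on day 3 (0.192 to 0.886) and 0.179 on day 7 (0.0345 to 0.594), and *Fyn*, a Src-family kinase, at 0.613 on day 3 (0.481 to 0.779). Of the tip cell genes *Hey1*, a Notch target, was the 1 of 4 past the fold on day 1, with 15 and 1 UMIs and a ratio of 0.111 (0.00264 to 0.723), and none of 5 and 4 was on day 3 and day 7.

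The genes most like each member were taken from 14481 genes by Pearson correlation of log2(CPM + 10) over 44 points (11 classes in 4 libraries), as a description, since points of a library share depth and points of a class share cell type. For *Flt1* they were *Rgs5* (0.978), *Eng* (0.971) and *Slc22a8* (0.963), and for *Kdr* *Vwf* (0.960), *Itm2a* (0.959) and *Ptrf* (0.958), of which *Eng* and *Vwf* are endothelial and *Rgs5* is a pericyte marker. *Tek* was most like *Kank3* (0.925), *Net1* (0.924) and *Arhgef15* (0.919). *Vegfa* was most like *Dbx2* (0.885), *Gm20713* (0.863) and *D630003M21Rik* (0.848), and *Angpt1* like *Dkk3* (0.781), *Bmpr1b* (0.753) and *Slc25a18* (0.717). Likeness was weaker for *Vegfb* (*Sfxn5* 0.784, *Acss1* 0.784, *Zfp783* 0.764), *Angpt2* (*Brap* 0.777, *Wdr83* 0.769, *Samm50* 0.757) and *Vegfc* (*Ccdc85a* 0.628, *Dysf* 0.600, *Mfsd10* 0.583). *Flt4* and *Pgf* had 75 and 51 UMIs in the classes with a name, which leave out unnamed nuclei, neurons of unnamed kind and the mixed class, fewer than the 100 required there.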

How the data were processed

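Single-nucleus libraries were made on the 10x Genomics droplet platform. The authors deposited raw UMI counts per gene and barcode, without a barcode filter, made with STARsolo (STAR 2.7.3a per the labels; exonic and intronic reads, GRCm38, Gencode vM8); no strand option is named, and the default counts the sense strand. Nuclei were called by the emptyDrops method, rewritten in Python (lower limit 1000 UMIs, FDR 0.001, 10000 draws), likely doublets, the highest Scrublet scores, were removed at 0.8% per 1000 nuclei, and libraries were integrated with Seurat 5.3.0 (3000 variable genes, 30 principal components, resolution 0.8), giving 30 clusters. The choice to cluster the vascular nuclei and 1 unnamed cluster again, and hence the mixed class, was made after the clusters were seen. The microglia-like class includes a cluster of 31 nuclei that also carries oligodendrocyte genes.

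Levels are summed UMIs of a gene per 1000000 UMIs of the class (CPM), with exact Poisson intervals, ratios with exact conditional binomial intervals, and shares with Clopper-Pearson intervals, all 95%. UMIs were not tested with a count model, since each group is 1 library, and no p-value is given. Ratios need 10 UMIs in the pair of sums, and the floor is 3 UMIs. Median-of-ratios and TMM scaling (edgeR 4.0.16, factors only) were among 18 alternatives. The interval functions were tested on simulated data. Named genes were the 10 members, at most 5 pathway genes past the fold per class and day in endothelial-like and astrocyte-like nuclei, and the 3 genes most like each member. The members and lists were chosen with earlier results of these data known.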

Additional observations from a re-analysis of the deposited data

How the results depend on the processing

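No paired analysis was possible because each group holds 1 library. Of 808 ratios recomputed under alternatives, 775 stayed within the counting interval of the reported ratio and 33 did not. The sign differed from that of the reported ratio in 56, of which 14 lay outside its interval, and 1 of these was a ratio past the fold, namely *Flt1* in astrocyte-like nuclei on day 3 with doublets kept (log2 ratio 0.048, against -1.30). A further 42 alternative ratios had too few UMIs. With nuclei thinned to 1000 UMIs, log2 ratios were 0.73 and -0.30 for *Vegfa* in astrocyte-like nuclei on day 1 and day 7, 0.33 and -1.32 for *Angpt1* there on day 3 and day 7, -0.85 for *Kdr* in endothelial-like nuclei on day 1 (reported 0.50), and -0.079 for *Flt1* there on day 3. *Flt1* in endothelial-like nuclei was at -0.35 (median of ratios) and -0.30 (TMM) on day 1. On day 3 it was at -0.60 (median of ratios), -0.31 (mean of nuclei), -1.21 (doublets kept) and, under alternatives added after seeing the data, -0.55 (vascular nuclei not clustered again), -0.36 (endothelial-like, mixed and mural-like nuclei pooled) and -0.11 (nuclei over 10000 UMIs left out). On day 7 *Flt1* was at -0.47 and *Tek* at -0.77 without the nucleus with most UMIs of the gene, and at -0.45 (-0.80 to -0.12) and -0.55 (-1.65 to 0.42) without nuclei over 10000 UMIs. The cause was not tested. At 2-fold, the genes past the fold numbered 1 in endothelial-like nuclei on day 3 (from 3), 1 in astrocyte-like nuclei on day 7 (from 2) and 0 in neurons on day 1 (from 1). Scaling moved all genes in endothelial-like nuclei by -0.39, 0.20 and -0.20 (median of ratios) and by -0.34, 0.11 and -0.09 (TMM) for day 1, day 3 and day 7, and in mural-like nuclei on day 1 by -0.93 (TMM). Median-of-ratios scaling could not be run in mural-like nuclei. The vascular values of day 1 rest on 6 endothelial-like and 7 mural-like nuclei.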

Other observations

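Clusters left unnamed held some ligand transcripts. A cluster of 77 nuclei led by *Aldoc* and *mt-Rnr2* held 39 UMIs of *Vegfb*, or 120.5 CPM, found in 33.8% of its nuclei, at 43.1 CPM in sham control, 142 on day 1, 100.2 on day 3 and 214 on day 7. In the same nuclei *Vegfa* stood at 52.5 CPM and *Angpt1* at 27.8 CPM. A cluster of 9 nuclei led by the heat-shock genes *Hspa1b* and *Hspa1a*, found on day 1 alone, held 10 UMIs of *Vegfa* in 5 nuclei, or 108.6 CPM. These clusters were singled out after their values were seen.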
